A study of Mus musculus with 9 samples.

Results

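The genes described here are 33 genes of cholesterol and fatty acid synthesis, of the control of that synthesis and of cholesterol efflux, measured by RNA sequencing in mouse CD4+ T cells. They were taken by symbol from a list of the pathway, with no measured value in the rule, and all 33 were found among the 45321 genes to which the deposited transcripts could be assigned. They comprise 18 enzymes of sterol synthesis, 6 genes of sterol sensing and of the control of SREBP (sterol regulatory element-binding protein), 3 genes of efflux and of the LXR (liver X receptor) response, and 6 genes of fatty acid synthesis. CD4+ T cells came from spleens of C57BL/6 mice, a common inbred strain, by a purification that leaves the CD4+ cells untouched, and they were first given DMSO as vehicle or Compound 10 at 12.5 µM over 1 h. Compound 10 is a small molecule that the series presents as directed at NFAT:AP-1. The cells were then left unstimulated or stimulated for 2 h with 10 nM PMA, an activator of protein kinase C, and 1 µM ionomycin, which raises calcium in the cell. The groups were unstimulated vehicle (2 libraries), unstimulated Compound 10 (2), stimulated vehicle (2) and stimulated Compound 10 (3). Unstimulated cells are listed with no stimulation time, and their time in culture after the first 1 h is not given here. Stimulation is therefore not separated here from time in culture or in the compound. Whether replicate libraries stem from different mice or cultures is not stated in the labels. The p-values therefore cover only the spread among these 9 samples, and that spread may be technical.

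Cells make cholesterol from acetyl-CoA by a chain of enzymes that first builds mevalonate, then isoprenoid units, then squalene, and at last closes and trims the sterol rings. When sterols in the endoplasmic reticulum are low, SCAP escorts SREBP to the Golgi, where it is cut and released to the nucleus to switch on these enzymes, whereas INSIG proteins hold SCAP back when sterols are plentiful. Oxysterols instead activate LXR, which raises transporters that export cholesterol and a ubiquitin ligase that lowers lipoprotein uptake. Activated T cells are known to turn towards lipid synthesis before they divide, and the LXR response is known to be lowered in them.

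Libraries held 10669821 to 21852830 estimated counts, and each value below is a normalised CPM (counts scaled to library size after TMM adjustment) unless another scale is named. Ribosomal RNA took 1.78% to 26.3% of the counts, and the vehicle libraries numbered 2 held the highest shares, 26.3% without and 13.8% with stimulation. Cd4, which defines the purified cells, lay at 77.2 to 166 CPM in the 9 libraries, Cd8a at 0 to 0.349 and Cd8b1 at 4.43 to 7.31, and the 7 markers of monocytes, macrophages and dendritic cells summed to 5.21 to 8.93 CPM. The 6 T cell markers were not level between groups, since they summed to 594 to 705 CPM in unstimulated vehicle, 894 to 1063 in unstimulated Compound 10, 795 to 949.6 in stimulated vehicle and 1352 to 1473 in stimulated Compound 10. The part of this shift in the results below was not tested. In bulk RNA, fewer cells of a type and less RNA per cell cannot be told apart.

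Each of the 33 had counts high enough to be tested, and they were tested among 14040 genes in 1 edgeR quasi-likelihood fit, where a gene is called at an adjusted p under 0.05. Stimulation in vehicle changed 18 of the 33, 9 higher and 9 lower, against 28.1% of all genes tested (14.3% higher, 13.8% lower). Under Compound 10 it changed 11, 6 higher and 5 lower, against 21.8% of all genes (11.0% higher, 10.8% lower). Compound 10 changed 10 of the 33 in stimulated cells, 5 higher and 5 lower, where 23.0% of all genes were called (11.7% higher, 11.4% lower). In unstimulated cells it changed 3, all higher, where 7.34% of all genes were called (4.44% higher, 2.90% lower), a share close to the 9.09% among the 33. The effect of Compound 10 differed between stimulated and unstimulated cells in 1 of the 33, lower, against 1.03% of all genes (0.420% higher, 0.605% lower). The median log2 change of the 33 was -0.33 with stimulation in vehicle, -0.22 under Compound 10, -0.01 with the compound in stimulated cells and 0.13 in unstimulated cells, beside -0.05, 0.0041, 0.0029 and -0.01 over all genes tested. Calls in both directions were made in the comparisons that involve stimulated cells, apart from the difference between effects. Without both vehicle libraries numbered 2, fewer of the 33 and fewer of all genes were called in each of the comparisons.

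**Figure D1:**
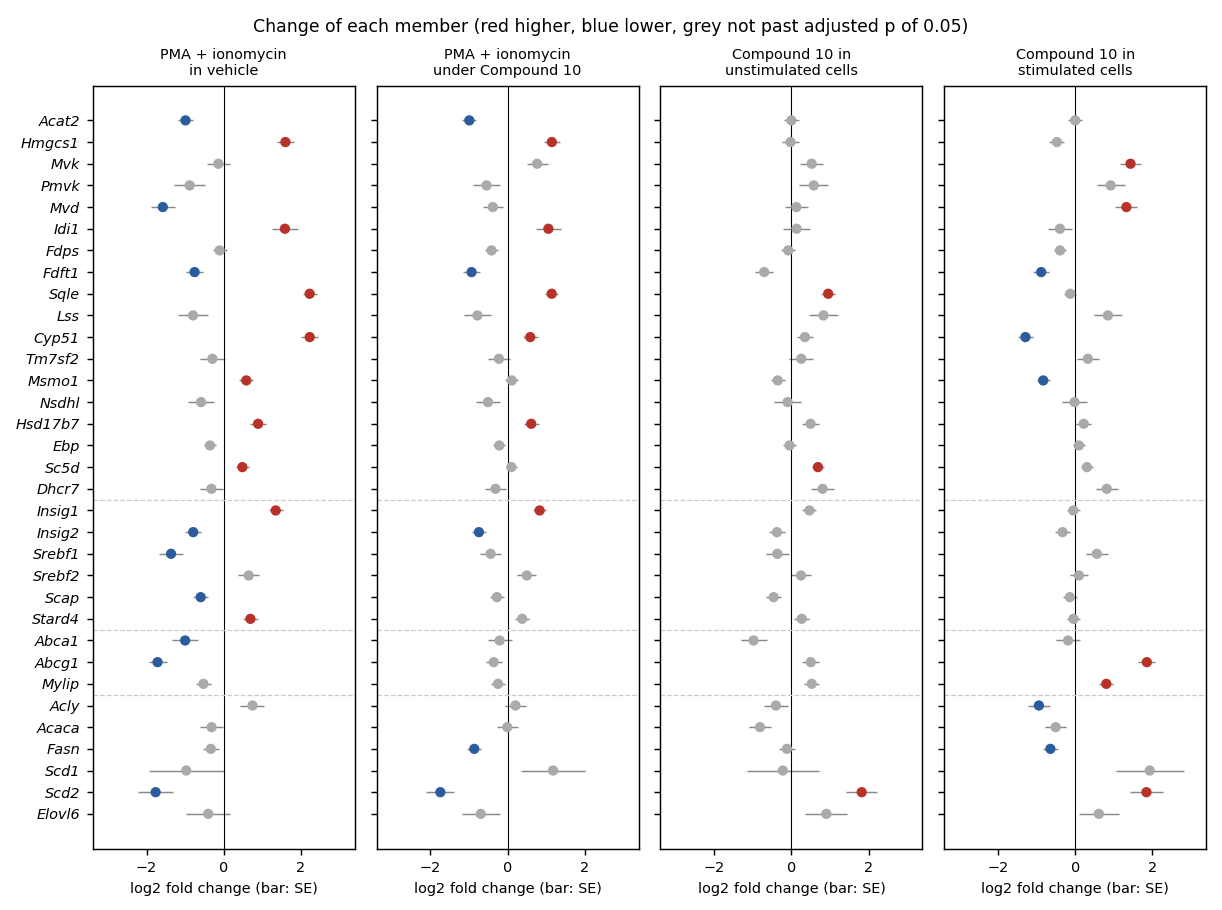
Log2 fold change (x axis, bar: standard error) of each of the 33 genes (y axis, dashed lines part the 4 roles) in 4 comparisons, with genes called higher in red, called lower in blue and not called in grey. The called genes lie on both sides of 0 with PMA and ionomycin and with Compound 10 in stimulated cells, and the 3 called in unstimulated cells are all higher.

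Sequence upstream of the RefSeq start sites is given for 5 called genes that stand for early and late enzymes, sterol sensing and the LXR response. SREBP acts with the factor NF-Y at promoters of this pathway. RefSeq promoters (build GRCm38.p6) were matched for 26 of the 33, and the 250 bases before the start were searched on both strands for TCACNCCAC (a form of the sterol regulatory element), CCAAT (the NF-Y box), CACGTG (an E-box, which holds no other of these motifs) and the DR4 element of LXR. The sequences are those of Hmgcs1 at chr13:119690101-119690350 (plus strand), Cyp51 at chr5:4104698-4104947 (minus strand), Insig1 at chr5:28071162-28071411 (plus strand), Mvd at chr8:122443423-122443672 (minus strand) and Mylip at chr13:45389492-45389741 (plus strand). Each reads 5′ to 3′ along the gene, and capitals mark the matches.
Hmgcs1: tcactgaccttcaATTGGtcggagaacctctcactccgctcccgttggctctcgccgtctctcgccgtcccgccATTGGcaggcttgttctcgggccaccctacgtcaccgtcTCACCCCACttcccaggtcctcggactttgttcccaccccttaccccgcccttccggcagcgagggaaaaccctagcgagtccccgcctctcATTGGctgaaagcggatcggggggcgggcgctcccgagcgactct
Cyp51: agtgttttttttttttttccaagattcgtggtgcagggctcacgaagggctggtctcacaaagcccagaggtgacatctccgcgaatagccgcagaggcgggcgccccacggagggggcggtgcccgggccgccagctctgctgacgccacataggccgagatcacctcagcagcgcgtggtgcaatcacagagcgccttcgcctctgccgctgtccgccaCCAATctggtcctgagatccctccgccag
Insig1: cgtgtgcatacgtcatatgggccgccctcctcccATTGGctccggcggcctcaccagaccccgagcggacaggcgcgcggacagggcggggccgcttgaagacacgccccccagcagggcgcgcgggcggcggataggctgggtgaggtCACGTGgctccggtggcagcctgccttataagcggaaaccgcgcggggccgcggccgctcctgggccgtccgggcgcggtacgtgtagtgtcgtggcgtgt
Mvd: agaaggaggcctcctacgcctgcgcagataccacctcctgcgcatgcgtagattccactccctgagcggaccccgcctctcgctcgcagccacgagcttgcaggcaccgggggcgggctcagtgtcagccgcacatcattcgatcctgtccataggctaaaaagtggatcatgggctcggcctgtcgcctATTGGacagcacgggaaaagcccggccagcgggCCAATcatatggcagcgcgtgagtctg
Mylip: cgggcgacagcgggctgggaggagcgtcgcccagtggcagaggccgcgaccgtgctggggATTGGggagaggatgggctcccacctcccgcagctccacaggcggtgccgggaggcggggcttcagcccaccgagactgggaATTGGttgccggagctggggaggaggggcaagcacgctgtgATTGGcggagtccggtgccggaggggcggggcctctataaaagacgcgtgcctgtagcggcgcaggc

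Hmgcs1 was the only one of the 26 with the sterol regulatory element in this form, TCACCCCAC at position -137 from the start, while 1.23% of 27025 genes with a promoter in the table held one. The NF-Y box stood in 20 of the 26 (76.9%), against 37.5% of these 27025 genes, which were not limited to the genes tested here. An E-box stood in 6 of the 26 (23.1%), namely Abca1, Dhcr7, Hsd17b7, Insig1, Sc5d and Scap, against 6.86% of the 27025 genes. No match to DR4 was found in the 26, and 0.0148% of the 27025 genes had one. All 5 promoters printed here held the NF-Y box before the RefSeq start, and a match is a description of these letters and not of binding. RefSeq starts can differ from those in the gene annotation used for counting. The windows of Cyp51 and Insig1 reach into the genes of that annotation, whose starts lie at chr5:4104746 and chr5:28071363. The only NF-Y box of Cyp51, at -29, falls within the gene so placed.

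The early enzymes of the sterol pathway split with stimulation. Hmgcs1 (chr13:119690379-119708260, plus strand), which makes HMG-CoA from acetoacetyl-CoA, lay at 29.9 and 28.6 CPM with vehicle and 31.1 and 26.4 CPM with Compound 10 before stimulation. After stimulation the values were 81.8 and 96.1 CPM with vehicle and 72.5, 47.7 and 71.3 CPM with Compound 10. Every stimulated library lay above every unstimulated one, and the stimulated Compound 10 libraries lay below the stimulated vehicle libraries. The log2 change with stimulation was 1.60 (SE 0.22, adjusted p = 0.000249) in vehicle and 1.15 (SE 0.21, adjusted p = 0.00195) under Compound 10, and that with the compound in stimulated cells, -0.48 (SE 0.20, adjusted p = 0.102), did not pass. Idi1 (chr13:8885501-8892451, plus strand), the isomerase of the isoprenoid units, lay at 44.0 and 55.8 CPM with vehicle and 63.9 and 45.5 CPM with Compound 10 before stimulation. The stimulated libraries held 109.6 and 191 CPM with vehicle and 130.2, 74.0 and 138 CPM with Compound 10. It rose with stimulation by 1.59 on the log2 scale (SE 0.35, adjusted p = 0.00641) in vehicle and by 1.06 on the log2 scale (SE 0.32, adjusted p = 0.0376) under Compound 10, and the 2 stimulated groups overlapped. The call of Idi1 in vehicle ended without library 1 of unstimulated vehicle (adjusted p = 0.0590), and that under Compound 10 ended without library 1 of unstimulated Compound 10 (adjusted p = 0.0710), library 2 of unstimulated Compound 10 (0.242), library 1 of stimulated Compound 10 (0.0948) or library 3 of stimulated Compound 10 (0.107). On log2(TPM + 1) in limma the calls under Compound 10 ended for Hmgcs1 (adjusted p = 0.0912) and Idi1 (0.181). Acat2, which joins 2 acetyl-CoA at the entry of the pathway, went the other way, at 96.5 and 73.2 CPM with vehicle and 85.3 and 84.0 CPM with Compound 10 before stimulation. In stimulated cells it lay at 48.4 and 37.0 CPM with vehicle and 40.7, 48.0 and 38.9 CPM with Compound 10. Both stimulated groups lay below both unstimulated groups, with log2 changes of -0.99 (SE 0.21, adjusted p = 0.00353) in vehicle and -0.99 (SE 0.18, adjusted p = 0.00230) under Compound 10. The compound itself left Acat2 at a log2 difference of -0.01 (SE 0.19) in stimulated cells. Acat2 shares 44.2% of its 31-base words with Acat3, which held at most 1.32 CPM. On the opposite strand, Gm48342 overlaps 12.1% of the exon bases of Hmgcs1, and Gm48574 overlaps 9.22% of those of Idi1. The strand of counting is not given. Of the 31-base words of Idi1, 18.8% occur in other genes, most of them in Gm13502, which held at most 0.959 CPM. Hmgcs1 shares 0% of its words.

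Of the 3 genes that turn mevalonate into isoprenoid units, Mvd and Mvk were higher with the compound in stimulated cells. Mvd (chr8:122433601-122443422, minus strand), mevalonate diphosphate decarboxylase, lay at 18.1 and 12.6 CPM with vehicle and 20.0 and 13.6 CPM with Compound 10 before stimulation. Stimulated cells gave 6.06 and 4.20 CPM with vehicle and 15.7, 12.5 and 10.4 CPM with Compound 10. Its stimulated vehicle libraries were the lowest of all 9, and its stimulated Compound 10 libraries overlapped the unstimulated ones. Stimulation lowered it with a log2 change of -1.58 (SE 0.31, adjusted p = 0.00229) in vehicle, while the value under Compound 10, -0.38 (SE 0.27, adjusted p = 0.357), did not pass. With the compound it was higher in stimulated cells by 1.32 on the log2 scale (SE 0.29, adjusted p = 0.00575). Mvk (chr5:114444269-114460591, plus strand), mevalonate kinase, lay at 7.28 and 4.90 CPM with vehicle and 9.03 and 8.47 CPM with Compound 10 before stimulation. With stimulation the levels were 6.47 and 4.56 CPM with vehicle and 11.3, 18.2 and 15.2 CPM with Compound 10. The 3 stimulated Compound 10 libraries were the highest, and Mvk was higher with the compound in stimulated cells by 1.43 on the log2 scale (SE 0.28, adjusted p = 0.00335), with no call in the other comparisons. Its change with stimulation under Compound 10, 0.77 (SE 0.27, adjusted p = 0.0630), passed without library 1 of stimulated Compound 10 (adjusted p = 0.0349), with upper-quartile scaling (0.0486) and with the stricter filter (0.0468). Pmvk, the next kinase, lay between 1.88 and 7.99 CPM and had a difference of 0.92 (SE 0.37, adjusted p = 0.0954) in stimulated cells, which did not pass. The 2 comparisons that gave Mvd its calls share the stimulated vehicle libraries, and the call with the compound ended without library 2 of stimulated vehicle (adjusted p = 0.0676). On log2(TPM + 1) in limma the calls with the compound ended for Mvk (adjusted p = 0.0843) and Mvd (0.0758).

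At squalene, 2 neighbouring enzymes differed. Sqle (chr15:59315077-59331192, plus strand), squalene epoxidase and a slow step of the pathway, lay at 11.02 and 9.94 CPM with vehicle and 21.5 and 19.1 CPM with Compound 10 before stimulation. After stimulation the values were 51.2 and 47.5 CPM with vehicle and 45.1, 45.5 and 44.2 CPM with Compound 10. The unstimulated vehicle libraries were lowest, the unstimulated Compound 10 libraries next, and all stimulated libraries were highest, those of the compound below those of vehicle. Stimulation raised it by 2.23 on the log2 scale (SE 0.18, adjusted p = 4.50e-06) in vehicle and by 1.15 on the log2 scale (SE 0.16, adjusted p = 0.000385) under Compound 10. The compound raised it in unstimulated cells by 0.95 on the log2 scale (SE 0.18, adjusted p = 0.00961), whereas in stimulated cells the difference was -0.13 (SE 0.16, adjusted p = 0.599). The difference between these effects, -1.09 (SE 0.24, adjusted p = 0.0532), missed the threshold, and it passed by DESeq2 (adjusted p = 0.00798) and without library 2 of stimulated Compound 10 (0.0367). It also passed with no filter (adjusted p = 0.0319), the stricter filter (0.0327) and without ribosomal RNA and mitochondrial genes (0.0485). The call in unstimulated cells ended without library 1 of unstimulated vehicle (adjusted p = 0.0563), library 2 of unstimulated vehicle (0.0852) or library 1 of unstimulated Compound 10 (0.0952), and on log2(TPM + 1) in limma (0.149), where the rise under Compound 10 also missed the threshold (0.0920).

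Fdft1, squalene synthase, the enzyme just before, lay at 28.8 and 25.2 CPM with vehicle and 15.98 and 17.1 CPM with Compound 10 before stimulation. The stimulated libraries held 18.1 and 13.97 CPM with vehicle and 9.85, 9.18 and 6.90 CPM with Compound 10. The groups did not overlap except for unstimulated Compound 10 and stimulated vehicle. It was lower with stimulation with a log2 change of -0.75 (SE 0.23, adjusted p = 0.0271) in vehicle and with a log2 change of -0.93 (SE 0.21, adjusted p = 0.00766) under Compound 10, and lower with the compound in stimulated cells with a log2 change of -0.89 (SE 0.21, adjusted p = 0.00940). These values are uncertain, since 18.3% of the exon bases of Fdft1 overlap Ctsb on the opposite strand, 47.5% of its 31-base words occur in other genes, Ctsb lay at 163 to 399 CPM and the strand of counting is not given. The call in vehicle ended without library 1 of unstimulated vehicle (adjusted p = 0.142), library 2 of unstimulated vehicle (0.0684) or library 2 of stimulated vehicle (0.175). That under the compound ended without library 2 of unstimulated Compound 10 (adjusted p = 0.0645), and that with the compound in stimulated cells ended without library 1 of stimulated vehicle (adjusted p = 0.0972). On log2(TPM + 1) in limma the calls in vehicle and with the compound ended as well (adjusted p = 0.0581 and 0.140), as did that in vehicle with no filter on low counts (0.0558).

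Cyp51 (chr5:4081145-4104746, minus strand) encodes lanosterol 14α-demethylase, the first of the enzymes that trim the sterol after ring closure. It lay at 28.5 and 28.5 CPM with vehicle and 42.0 and 30.6 CPM with Compound 10 before stimulation. In stimulated cells it lay at 133 and 135 CPM with vehicle and 62.2, 44.9 and 56.6 CPM with Compound 10. The stimulated vehicle libraries stood far above all others, and the stimulated Compound 10 libraries lay only a little above the unstimulated ones. Stimulation raised Cyp51 by 2.24 on the log2 scale (SE 0.22, adjusted p = 1.56e-05) in vehicle, a 4.71-fold rise, and by 0.59 on the log2 scale (SE 0.19, adjusted p = 0.0451) under Compound 10, a 1.504-fold rise. The compound lowered it in stimulated cells with a log2 change of -1.30 (SE 0.18, adjusted p = 0.000468) and left a difference of 0.35 (SE 0.21, adjusted p = 0.358) in unstimulated cells. The difference between those effects was -1.65 (SE 0.28, adjusted p = 0.0182), the only one of the 33 that passed. The rise in vehicle and the lower level with the compound in stimulated cells kept an adjusted p under 0.05 in every alternative run. The call under Compound 10 ended without library 1 of unstimulated vehicle (adjusted p = 0.0646), library 2 of unstimulated vehicle (0.0649), library 2 of unstimulated Compound 10 (0.378), library 1 of stimulated vehicle (0.0573), library 2 of stimulated vehicle (0.0567), library 1 of stimulated Compound 10 (0.130) or library 3 of stimulated Compound 10 (0.118), on log2(TPM + 1) in limma (adjusted p = 0.628), with no filter (0.0561) and with only the groups compared (0.0698). The call of the difference ended without library 1 of unstimulated vehicle (adjusted p = 0.0749), library 2 of unstimulated vehicle (0.0873), library 1 of unstimulated Compound 10 (0.115), library 1 of stimulated vehicle (0.0651), library 2 of stimulated vehicle (0.0580) or library 3 of stimulated Compound 10 (0.0624), and on log2(TPM + 1) in limma (0.105). Retained-intron transcripts held 16.6% to 41.9% of the TPM of Cyp51.

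Msmo1 (chr8:64718139-64733792, minus strand), the sterol C4 methyl oxidase that acts soon after Cyp51, lay at 56.7 and 45.6 CPM with vehicle and 41.0 and 38.9 CPM with Compound 10 before stimulation. Stimulated cells gave 75.0 and 78.9 CPM with vehicle and 40.3, 40.8 and 48.3 CPM with Compound 10. The stimulated vehicle libraries were the highest, while the stimulated and unstimulated Compound 10 libraries overlapped. It rose with stimulation in vehicle by 0.59 on the log2 scale (SE 0.18, adjusted p = 0.0290) and was lower with the compound in stimulated cells with a log2 change of -0.84 (SE 0.16, adjusted p = 0.00323). Its rise in vehicle ended without library 2 of unstimulated vehicle (adjusted p = 0.213), library 1 of stimulated vehicle (0.0727) or library 2 of stimulated vehicle (0.103), on log2(TPM + 1) in limma (adjusted p = 0.673) and with effective lengths as an offset (0.0976), and its call with the compound ended on log2(TPM + 1) in limma (0.0801).

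Of the later enzymes, Hsd17b7, the sterol 3-keto reductase, lay at 6.63 and 7.81 CPM with vehicle and 10.1 and 10.2 CPM with Compound 10 before stimulation. With stimulation the levels were 13.5 and 13.4 CPM with vehicle and 15.7, 16.3 and 14.8 CPM with Compound 10. All stimulated libraries lay above all unstimulated ones. Stimulation raised it by 0.90 on the log2 scale (SE 0.21, adjusted p = 0.00696) in vehicle and by 0.61 on the log2 scale (SE 0.19, adjusted p = 0.0359) under Compound 10. Sc5d, the sterol C5 desaturase, lay at 35.4 and 35.6 CPM with vehicle and 57.9 and 56.4 CPM with Compound 10 before stimulation. After stimulation the values were 51.9 and 47.5 CPM with vehicle and 59.6, 58.9 and 65.2 CPM with Compound 10. The unstimulated vehicle libraries stood below all others. Sc5d was higher with stimulation in vehicle by 0.49 on the log2 scale (SE 0.16, adjusted p = 0.0434) and higher with the compound in unstimulated cells by 0.69 on the log2 scale (SE 0.16, adjusted p = 0.0275). The calls of Hsd17b7 ended without library 1 of unstimulated vehicle (adjusted p = 0.0725) in vehicle and without library 1 of unstimulated vehicle (adjusted p = 0.05001), library 1 of unstimulated Compound 10 (0.180), library 2 of unstimulated Compound 10 (0.180), library 1 of stimulated Compound 10 (0.0725), library 2 of stimulated Compound 10 (0.0569) or library 3 of stimulated Compound 10 (0.0699) under the compound. The call of Sc5d in unstimulated cells ended without library 1 of unstimulated vehicle (adjusted p = 0.153), library 2 of unstimulated vehicle (0.142), library 1 of unstimulated Compound 10 (0.171) or library 2 of unstimulated Compound 10 (0.121), and that in vehicle ended without any 1 library other than stimulated Compound 10 library 2 (adjusted p from 0.0592 to 0.176). These 4 calls also ended on log2(TPM + 1) in limma (adjusted p = 0.0604 and 0.190 for Hsd17b7, 0.559 and 0.272 for Sc5d). With no filter that of Hsd17b7 under the compound (0.133) and that of Sc5d in vehicle (0.116) ended. The calls of Sc5d ended as well with upper-quartile scaling (0.0643) and only the groups compared (0.0560) in vehicle, and with effective lengths as an offset (0.0583) in unstimulated cells.

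The other 7 sterol enzymes were called in no comparison. They were Pmvk, the farnesyl diphosphate synthase gene Fdps, the lanosterol synthase gene Lss, the sterol reductase gene Tm7sf2, the sterol dehydrogenase gene Nsdhl, the isomerase gene Ebp and Dhcr7, the last reductase of one branch. With the compound in stimulated cells their log2 differences ran from -0.40 (Fdps) to 0.92 (Pmvk). Dhcr7 lay at 38.3 and 27.4 CPM with vehicle and 61.0 and 54.0 CPM with Compound 10 before stimulation. The stimulated libraries held 35.2 and 17.4 CPM with vehicle and 52.1, 37.5 and 49.6 CPM with Compound 10. The Compound 10 libraries lay above the vehicle libraries in both states, by 0.81 on the log2 scale (SE 0.30, adjusted p = 0.132) in unstimulated and 0.81 (SE 0.28, adjusted p = 0.0565) in stimulated cells. The former passed with no filter (adjusted p = 0.0113) and with only the groups compared (0.0256). The latter passed by DESeq2 (adjusted p = 0.0281), with upper-quartile scaling (0.0297), with no filter (0.00502) and with the stricter filter (0.0348). It also passed without ribosomal RNA and mitochondrial genes (0.0447), and it was 1.42 without library 1 of stimulated vehicle. Without library 2 of stimulated Compound 10 its adjusted p was 0.0417, and its change with stimulation in vehicle passed without library 1 of stimulated vehicle (0.0466). Lss, at 2.40 to 10.9 CPM, had a difference of 0.84 (SE 0.37, adjusted p = 0.123) in stimulated cells, which was 1.58 (adjusted p = 0.00358) with effective lengths as an offset. Over the 18 sterol enzymes, stimulation in vehicle gave 7 higher and 3 lower calls with a median log2 change of -0.21. Compound 10 in stimulated cells gave 2 higher and 3 lower calls with a median of 0.04. The medians over all genes were -0.05 and 0.0029. Of all genes tested, 14.3% were called higher and 13.8% lower in the first comparison, and 11.7% and 11.4% in the second.

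**Figure D2:**
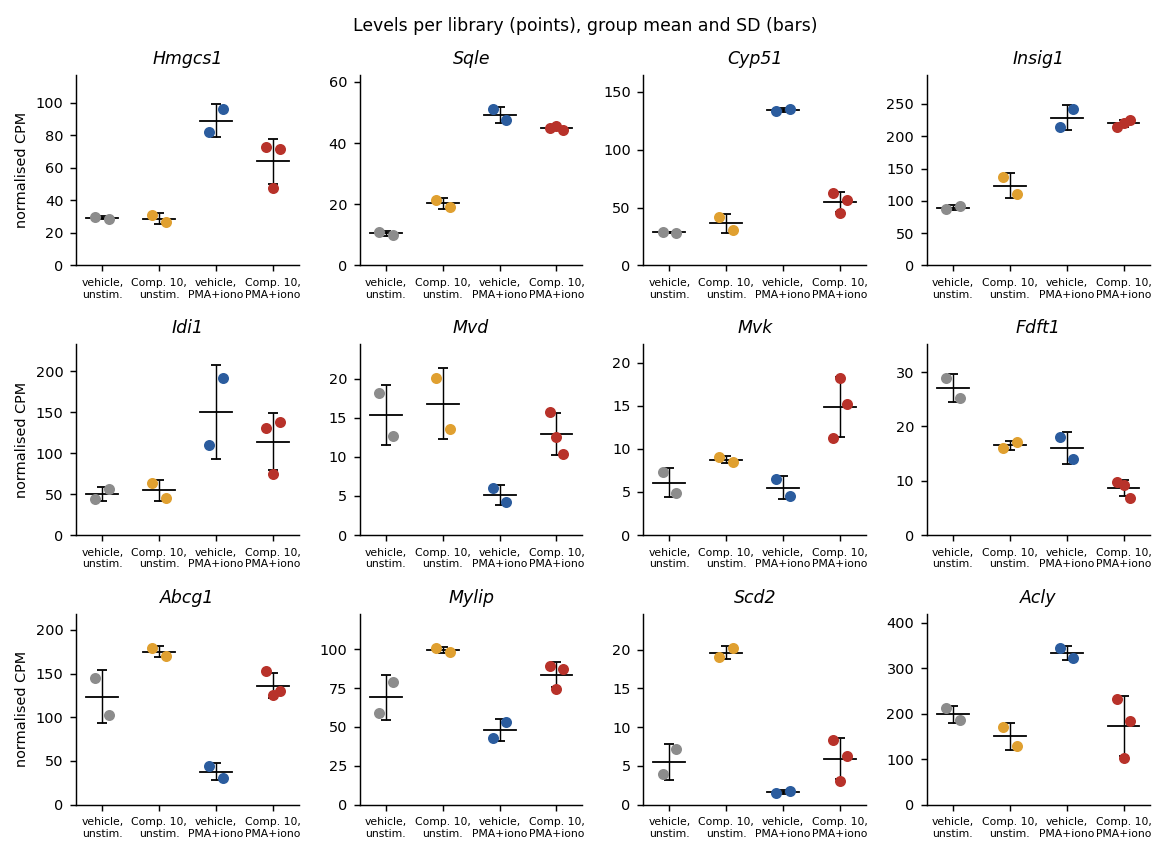
Normalised CPM (y axis) of 12 of the genes in each library (points) by group (x axis), with the group mean and SD as bars. Cyp51 is highest in the 2 stimulated vehicle libraries, and Abcg1, Mvd and Scd2 are lowest there.

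Among the genes that sense sterols and control SREBP, Insig1 (chr5:28071363-28078662, plus strand), which retains SCAP and is itself an SREBP target, lay at 87.0 and 91.9 CPM with vehicle and 137 and 110.2 CPM with Compound 10 before stimulation. In stimulated cells it lay at 215 and 242 CPM with vehicle and 215, 221 and 225 CPM with Compound 10. The 2 stimulated groups overlapped and lay above all unstimulated libraries. The log2 rise was 1.35 (SE 0.18, adjusted p = 0.000217) in vehicle and 0.83 (SE 0.17, adjusted p = 0.00414) under Compound 10, and the compound left a difference of -0.05 (SE 0.17) in stimulated cells. In unstimulated cells its difference was 0.47 (SE 0.18, adjusted p = 0.149), which did not pass. The rise under Compound 10 ended without library 2 of unstimulated Compound 10 (adjusted p = 0.0828), and on log2(TPM + 1) in limma (0.239). Insig2, its paralog, fell in both arms, from 29.2 ± 2.18 to 16.9 ± 0.0749 CPM in vehicle (SD, n = 2 each), a change of -0.79 (SE 0.20, adjusted p = 0.0120), and with a log2 change of -0.74 (SE 0.18, adjusted p = 0.0126) under Compound 10. The calls of Insig2 ended without library 1 of unstimulated vehicle (adjusted p = 0.0754), library 1 of stimulated vehicle (0.0548) or library 2 of stimulated vehicle (0.0564) in vehicle, where limma on log2(TPM + 1) gave 0.0673, and without library 1 of unstimulated Compound 10 (adjusted p = 0.106) or library 2 of unstimulated Compound 10 (0.0553) under the compound.

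The SREBP genes themselves went apart. Srebf1, which encodes the form most tied to fatty acid synthesis, lay at 36.7 and 38.0 CPM with vehicle and 29.4 and 28.6 CPM with Compound 10 before stimulation. Stimulated cells gave 17.0 and 11.99 CPM with vehicle and 27.2, 13.0 and 24.1 CPM with Compound 10. The stimulated vehicle libraries lay below the unstimulated ones, and stimulated Compound 10 library 2 lay among them. It fell with stimulation in vehicle with a log2 change of -1.36 (SE 0.30, adjusted p = 0.00552), and the value under Compound 10, -0.44 (SE 0.27, adjusted p = 0.291), did not pass. The call ended without library 2 of stimulated vehicle (adjusted p = 0.0607). With the compound in stimulated cells the difference was 0.56 (SE 0.28, adjusted p = 0.183), and 0.80 (adjusted p = 0.0120) without library 2 of stimulated Compound 10. The transcript Srebf1-201 held 56.8% to 84.8% of the TPM of Srebf1 and Srebf1-207 8.25% to 28.4%, with no measure of the assignment error. Srebf2, the form most tied to cholesterol synthesis, lay at 35.0 and 43.2 CPM with vehicle and 50.9 and 41.8 CPM with Compound 10 before stimulation. With stimulation the levels were 58.0 and 64.9 CPM with vehicle and 79.4, 42.7 and 74.7 CPM with Compound 10. Its stimulated vehicle libraries lay above the unstimulated vehicle libraries, but no change of Srebf2 passed, with 0.65 (SE 0.27, adjusted p = 0.0897) in vehicle. Without library 2 of stimulated Compound 10, its changes passed in vehicle (adjusted p = 0.0100) and under Compound 10 (0.0111), as did that in vehicle with no filter (0.0216) and with only the groups compared (0.0301). Scap was lower with stimulation in vehicle with a log2 change of -0.59 (SE 0.20, adjusted p = 0.0431), from 34.7 ± 4.63 to 23.0 ± 2.21 CPM (SD, n = 2 each), a call that ended without any 1 of the 9 libraries (adjusted p from 0.0526 to 0.245), and with DESeq2 (0.0675), median-of-ratios scaling (0.0569), only the groups compared (0.0813), no filter (0.139), limma on log2(TPM + 1) (0.326) and effective lengths as an offset (0.396). Stard4, a carrier of sterol between membranes, rose in vehicle by 0.70 on the log2 scale (SE 0.19, adjusted p = 0.0183), from 22.5 ± 1.13 to 36.5 ± 2.79 CPM (SD, n = 2 each), a call that ended without library 1 of unstimulated vehicle (adjusted p = 0.0677), library 2 of unstimulated vehicle (0.107) or library 1 of stimulated vehicle (0.0928), and on log2(TPM + 1) in limma (0.247). Of these 6 genes, 5 were called with stimulation in vehicle and 2 under Compound 10, where 28.1% and 21.8% of all genes were called. None was called for the compound in stimulated or unstimulated cells (edgeR), where 23.0% and 7.34% of all genes were called. For the compound, 0 of the 6 had an unadjusted p under 0.05 in stimulated and 2 in unstimulated cells. DESeq2 called 0 and 0 there, and limma on log2(TPM + 1) 0 and 0.

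Among the efflux and LXR target genes, Abcg1 and Abca1 fell with stimulation in vehicle, and Abcg1 and Mylip were higher with the compound in stimulated cells. Abcg1 (chr17:31057675-31117988, plus strand), a transporter that hands cholesterol to lipoproteins, lay at 145 and 102 CPM with vehicle and 179 and 170.4 CPM with Compound 10 before stimulation. After stimulation the values were 44.4 and 30.9 CPM with vehicle and 153, 125 and 130.2 CPM with Compound 10. The stimulated vehicle libraries stood below all others, and the stimulated Compound 10 libraries lay within the range of the unstimulated ones. Stimulation lowered Abcg1 with a log2 change of -1.71 (SE 0.23, adjusted p = 0.000209) in vehicle, and the value under Compound 10 was -0.36 (SE 0.20, adjusted p = 0.247), which did not pass. With the compound it was higher in stimulated cells by 1.85 on the log2 scale (SE 0.22, adjusted p = 0.000172), a 3.62-fold difference, against 0.50 (SE 0.23, adjusted p = 0.212) in unstimulated cells. The difference between those effects, 1.35 (SE 0.31, adjusted p = 0.0674), missed the threshold, and it passed by DESeq2 (adjusted p = 0.00435) and without library 2 of stimulated Compound 10 (0.0412). It also passed with upper-quartile scaling (adjusted p = 0.0414), no filter (0.00600) and the stricter filter (0.0413). The 2 calls of Abcg1 kept an adjusted p under 0.05 in every alternative run, although they share the stimulated vehicle libraries.

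Mylip (chr13:45389742-45412022, plus strand), the ubiquitin ligase also called IDOL, lay at 58.8 and 79.1 CPM with vehicle and 101 and 97.9 CPM with Compound 10 before stimulation. The stimulated libraries held 43.1 and 52.9 CPM with vehicle and 89.3, 74.3 and 87.5 CPM with Compound 10. The Compound 10 libraries lay above the vehicle libraries of the same state. Mylip was higher with the compound in stimulated cells by 0.80 on the log2 scale (SE 0.19, adjusted p = 0.00811), while the value with stimulation in vehicle, -0.52 (SE 0.20, adjusted p = 0.0693), and that with the compound in unstimulated cells, 0.53 (SE 0.20, adjusted p = 0.132), did not pass. The change in vehicle passed without library 1 of unstimulated vehicle (adjusted p = 0.0465) and with upper-quartile scaling (0.0467). The call with the compound ended without library 1 of stimulated vehicle (adjusted p = 0.0814), and on log2(TPM + 1) in limma (0.0908). Abca1, the transporter that loads nascent HDL, lay at 8.79 and 12.1 CPM with vehicle and 5.98 and 4.60 CPM with Compound 10 before stimulation. In stimulated cells it lay at 4.70 and 5.76 CPM with vehicle and 4.89, 3.00 and 5.94 CPM with Compound 10. The unstimulated vehicle libraries were the highest, and the stimulated groups overlapped. It was lower with stimulation in vehicle with a log2 change of -0.998 (SE 0.34, adjusted p = 0.0433), and the compound left a difference of -0.19 (SE 0.31, adjusted p = 0.726) in stimulated cells, which did not pass. In unstimulated cells the Compound 10 libraries lay below the vehicle libraries, with a difference of -0.98 (SE 0.34, adjusted p = 0.101). That difference did not pass, except with only the groups compared (adjusted p = 0.0455). The call of Abca1 ended without library 1 of unstimulated vehicle (adjusted p = 0.0584), library 2 of unstimulated vehicle (0.262), library 1 of unstimulated Compound 10 (0.0551), library 2 of unstimulated Compound 10 (0.0546), library 1 of stimulated vehicle (0.194) or library 2 of stimulated vehicle (0.0949), and with effective lengths as an offset (0.0509). Macrophages express these genes strongly. Of the 7 markers of monocytes, macrophages and dendritic cells, Lyz2 lay at 1.498 to 5.33 CPM and Cd68 at 0.873 to 3.86 over the 9 libraries, while Cd14, Csf1r, Adgre1, Mrc1 and Itgax were each at 0.716 or less. The 3 efflux genes summed to 89.6 to 286 CPM, and the part of such cells in these levels was not tested.

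In fatty acid synthesis, Acly (chr11:100476353-100528000, minus strand), the citrate lyase that supplies acetyl-CoA in the cytosol, lay at 212 and 185 CPM with vehicle and 171 and 129 CPM with Compound 10 before stimulation. Stimulated cells gave 344 and 323 CPM with vehicle and 232, 103 and 185 CPM with Compound 10. The stimulated vehicle libraries were the highest of all, and the 3 stimulated Compound 10 libraries, spread over 103 to 232, lay below them. It was lower with the compound in stimulated cells with a log2 change of -0.95 (SE 0.28, adjusted p = 0.0291), while the change with stimulation in vehicle, 0.75 (SE 0.31, adjusted p = 0.0956), did not pass. That change did pass by DESeq2 (adjusted p = 0.0435), with no filter (0.00810), with only the groups compared (0.0212) and without library 2 of stimulated Compound 10 (0.00876). The call of Acly ended without library 1 of stimulated vehicle (adjusted p = 0.141), library 2 of stimulated vehicle (0.108) or library 3 of stimulated Compound 10 (0.0673), on log2(TPM + 1) in limma (0.0661) and with only the groups compared (0.0545). Fasn, the fatty acid synthase that lengthens the chain, lay at 53.0 and 59.0 CPM with vehicle and 54.6 and 48.6 CPM with Compound 10 before stimulation. With stimulation the levels were 43.4 and 45.7 CPM with vehicle and 35.1, 23.8 and 26.4 CPM with Compound 10. The stimulated Compound 10 libraries were the lowest. Fasn was lower with the compound in stimulated cells with a log2 change of -0.65 (SE 0.19, adjusted p = 0.0242) and lower with stimulation under Compound 10 with a log2 change of -0.86 (SE 0.19, adjusted p = 0.00564). Retained-intron transcripts held 43.0% to 81.9% of the TPM of Fasn, and with effective lengths as an offset both calls ended (adjusted p = 0.516 and 0.0832). The call with the compound also ended without library 1 of stimulated vehicle (adjusted p = 0.0799), library 2 of stimulated vehicle (0.114) or library 3 of stimulated Compound 10 (0.0866), on log2(TPM + 1) in limma (0.678) and with only the groups compared (0.0613), and that under the compound without library 1 of unstimulated Compound 10 (adjusted p = 0.0639). Acaca, the acetyl-CoA carboxylase between Acly and Fasn, was called in no comparison and had a difference of -0.51 (SE 0.27, adjusted p = 0.205) in stimulated cells.

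Scd2 (chr19:44293674-44306864, plus strand), a desaturase that makes monounsaturated fatty acids, was the only one of the 33 called for the compound in both states. It lay at 3.89 and 7.16 CPM with vehicle and 19.0 and 20.2 CPM with Compound 10 before stimulation. After stimulation the values were 1.46 and 1.80 CPM with vehicle and 8.33, 3.06 and 6.28 CPM with Compound 10. The unstimulated Compound 10 libraries stood far above all others and the stimulated vehicle libraries were the lowest. The compound raised Scd2 by 1.82 on the log2 scale (SE 0.41, adjusted p = 0.0216) in unstimulated and by 1.84 on the log2 scale (SE 0.42, adjusted p = 0.00814) in stimulated cells, and the difference between those effects was 0.02 (SE 0.49). Stimulation lowered it with a log2 change of -1.76 (SE 0.45, adjusted p = 0.0116) in vehicle and with a log2 change of -1.74 (SE 0.36, adjusted p = 0.00480) under Compound 10, the last of which kept an adjusted p under 0.05 in every alternative run. The counts behind Scd2 were small, 28 and 30 in the stimulated vehicle libraries and 104, 47 and 72 in the stimulated Compound 10 libraries. The call in unstimulated cells ended without library 1 of unstimulated vehicle (adjusted p = 0.157), library 1 of unstimulated Compound 10 (0.102) or library 2 of unstimulated Compound 10 (0.104). That in stimulated cells ended without library 1 of stimulated vehicle (adjusted p = 0.0824) or library 2 of stimulated vehicle (0.0547), and that with stimulation in vehicle without library 2 of unstimulated vehicle (adjusted p = 0.116), library 1 of stimulated vehicle (0.0925) or library 2 of stimulated vehicle (0.0571). On log2(TPM + 1) in limma the last 2 ended too (0.151 and 0.0717). Scd1, its paralog and the main desaturase of liver, had 0 to 27 counts per library, and Elovl6, the elongase of saturated chains, 14 to 57, with no call for either. Without library 1 of stimulated vehicle, Scd1 passed with the compound in stimulated cells (adjusted p = 0.00819) and with stimulation in vehicle (0.0170), a fit that leaves the group with 1 library, at 0 counts. The 6 fatty acid genes had a median log2 change of 0.05 with the compound in stimulated cells and -0.37 with stimulation in vehicle. They had 1 higher and 2 lower calls in the first comparison and 1 lower call in the second. Of all genes tested, 23.0% were called in the first and 28.1% in the second.

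The balance of synthesis and efflux was followed in each library as the mean log2(CPM + 1) of the 24 synthesis genes less that of Abca1, Abcg1 and Mylip, given as a description with no test. Before stimulation the difference was -1.32 and -1.51 with vehicle and -1.26 and -1.29 with Compound 10. After it, the difference was -0.28 and -0.38 with vehicle and -1.08, -0.95 and -1.21 with Compound 10. The stimulated vehicle libraries lay above all others, and the stimulated Compound 10 libraries lay next above the unstimulated ones. The group means differed by 1.08 with stimulation in vehicle and 0.19 under Compound 10, by -0.75 with the compound in stimulated cells and by 0.14 in unstimulated cells. The efflux genes had a mean of 4.49 and 4.50 in stimulated vehicle against 5.07 to 5.66 in the other libraries. Abca1 alone did not follow this mean, at 5.23 CPM on average in stimulated vehicle and 4.61 in stimulated Compound 10, with overlapping libraries. The mean of the synthesis genes ran from 4.07 to 4.40 over all 9 libraries with overlapping stimulated groups. Summed CPM of the 24 synthesis genes gave another picture, since abundant genes weigh more there: 1126 and 1155 in stimulated vehicle against 931, 681 and 867 in stimulated Compound 10 and 720.2 to 831 in unstimulated cells.

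**Figure D3:**
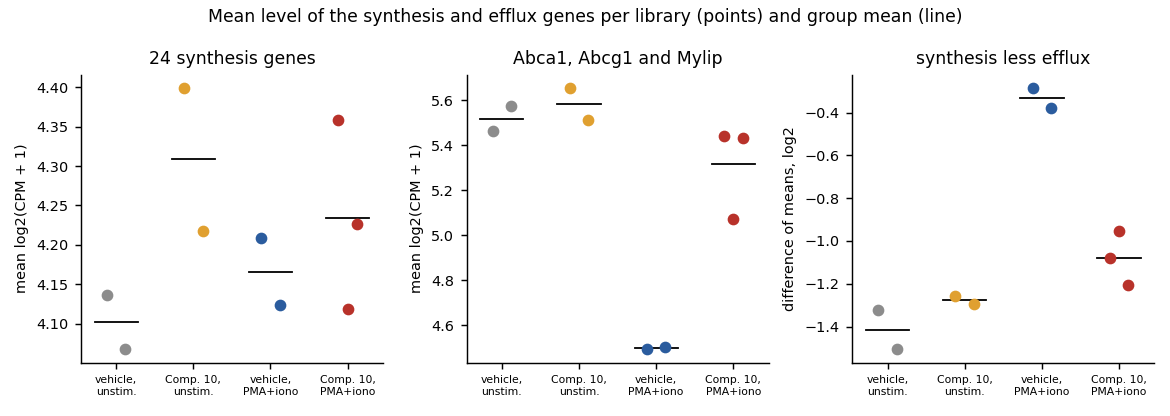
Mean log2(CPM + 1) per library (points, line: group mean) of the 24 synthesis genes, of the 3 efflux genes and of their difference (y axes, not starting at 0) by group (x axis). The mean of the efflux genes is lowest in stimulated vehicle, at 4.49 and 4.50, and the difference is highest there.

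Stimulation was also compared between its arms, which share no library. Of the 9 genes that rose in vehicle, 6 also rose under Compound 10 (all 6 that rose there), namely Hmgcs1, Idi1, Sqle, Cyp51, Hsd17b7 and Insig1. Of the 9 that fell in vehicle, 4 also fell under Compound 10 (4 of the 5 that fell there), namely Acat2, Fdft1, Insig2 and Scd2. Over all genes tested, 1126 of the 2012 that rose in vehicle (56.0%) also rose under Compound 10 (73.1% of 1541), and 907 of the 1931 that fell (47.0%) also fell there (59.9% of 1513). The members' shares, 66.7% of the genes that rose in vehicle and 44.4% of those that fell, rest on 9 genes each and are read as a description. In the reported fit, only for Cyp51 was the arm difference itself past the threshold, while those of Sqle and Abcg1 passed in some alternatives. The fold rise in vehicle and under the compound was 4.71 and 1.504 for Cyp51, 4.71 and 2.21 for Sqle, 3.04 and 2.22 for Hmgcs1, and 2.55 and 1.78 for Insig1.

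**Figure D4:**
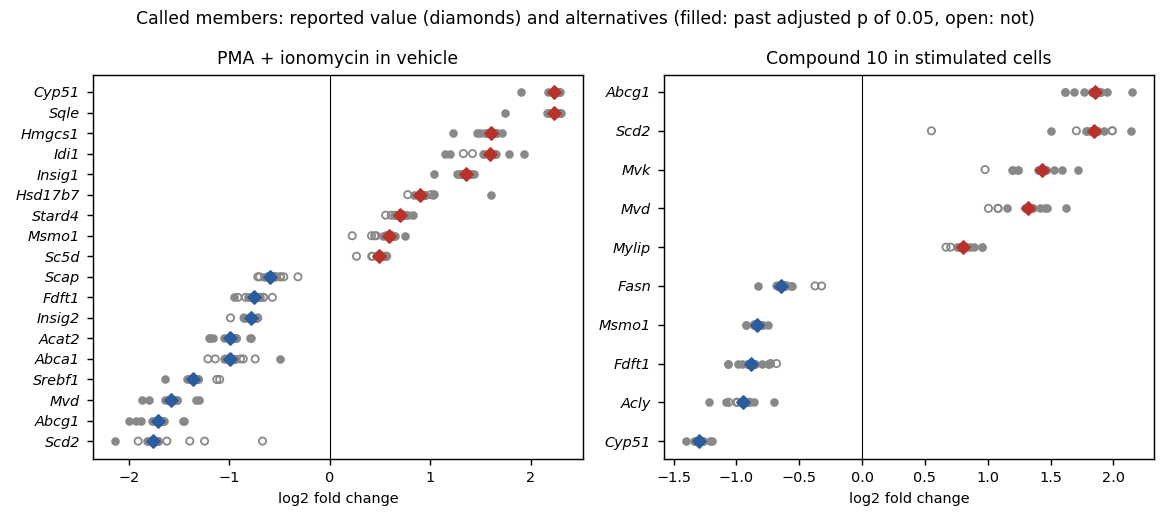
Log2 fold change (x axis) of the called genes (y axis) with stimulation in vehicle and with Compound 10 in stimulated cells, as reported (diamonds) and under each alternative (circles, filled where the adjusted p is under 0.05). Abcg1 and Cyp51 have only filled circles in both panels.

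Other genes of these pathways were followed as lists. Over all genes tested, 28.1% were called with stimulation in vehicle and 23.0% with the compound in stimulated cells. Among the tested genes of a list the shares ran from 20% to 54.5% and from 22.2% to 66.7% in these comparisons. With the compound, SREBP processing and degradation (22.2%) and the non-sterol branches (27.3%) lay close to the share of all genes. Among 9 genes of SREBP processing and degradation, 1 was higher and 2 lower with stimulation in vehicle (Fbxw7, Rnf145 and Mbtps1), and 2 were higher with the compound in stimulated cells (Rnf145 and Usp20). Mbtps1, the site-1 protease that cuts SREBP, was lower with stimulation with a log2 change of -1.504 (SE 0.34, adjusted p = 0.00577), and Rnf145, a sterol-responsive ubiquitin ligase, with a log2 change of -2.65 (SE 0.24, adjusted p = 9.91e-06). Of the LXR receptors and partners 3 of 5 were tested, and Rxrb was lower with stimulation in vehicle with a log2 change of -1.71 (SE 0.27, adjusted p = 0.000651) and higher with the compound in stimulated cells by 1.09 on the log2 scale (SE 0.25, adjusted p = 0.00836). Nr1h2 (LXRβ) lay at 46.9 to 86.4 CPM and Nr1h3 (LXRα) at 0 to 0.262, below the filter. Among the further LXR targets 3 of 5 were tested, and 2 were higher with the compound in stimulated cells. Arl4c, a small GTPase, lay at 63.0 and 81.3 CPM with vehicle and 61.6 and 66.2 CPM with Compound 10 before stimulation. The stimulated libraries held 48.1 and 46.0 CPM with vehicle and 159, 146 and 161 CPM with Compound 10. The stimulated Compound 10 libraries stood above all others. Arl4c was higher with the compound in stimulated cells by 1.72 on the log2 scale (SE 0.17, adjusted p = 7.56e-05), and the difference between the effects in the 2 states was 1.90 (SE 0.25, adjusted p = 0.00405). Smpdl3a, a phosphodiesterase, was higher by 1.35 on the log2 scale (SE 0.24, adjusted p = 0.00190).

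Of 11 genes of sterol storage and transport, 4 were higher and 1 lower with the compound in stimulated cells, and 3 were higher and 3 lower with stimulation in vehicle. Lipa, the lysosomal acid lipase that frees cholesterol from its esters, lay at 45.9 and 51.3 CPM with vehicle and 97.4 and 79.9 CPM with Compound 10 before stimulation. In stimulated cells it lay at 22.5 and 27.6 CPM with vehicle and 64.5, 57.6 and 75.3 CPM with Compound 10. It was higher with the compound in stimulated cells by 1.39 on the log2 scale (SE 0.19, adjusted p = 0.000368) and in unstimulated cells by 0.87 on the log2 scale (SE 0.20, adjusted p = 0.0223). Of the paired sterol carriers at membrane contacts, Gramd1a was higher by 1.29 on the log2 scale (SE 0.17, adjusted p = 0.000362) and Gramd1b lower with a log2 change of -1.45 (SE 0.19, adjusted p = 0.000333). The difference between states passed for Gramd1b, -1.67 (SE 0.30, adjusted p = 0.0251). Of 11 genes of the non-sterol branches, 1 was higher and 2 were lower with the compound in stimulated cells, namely Coq2, Fnta and Nus1. Coq2, of ubiquinone synthesis, was higher by 1.91 on the log2 scale (SE 0.29, adjusted p = 0.000762). Fnta, of protein prenylation, and Nus1, of dolichol synthesis, were at -0.99 (SE 0.18, adjusted p = 0.00182) and -0.73 (SE 0.19, adjusted p = 0.0156). With stimulation in vehicle 1 was higher and 2 were lower.

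Of 19 further genes of fatty acid synthesis, elongation and desaturation 16 were tested, and 3 were higher and 4 lower with the compound in stimulated cells. Acsl4, which activates long polyunsaturated fatty acids, lay at 21.5 and 35.5 CPM with vehicle and 33.8 and 32.4 CPM with Compound 10 before stimulation. Stimulated cells gave 243 and 304 CPM with vehicle and 121, 116 and 135 CPM with Compound 10. It rose with stimulation in vehicle by 3.26 on the log2 scale (SE 0.25, adjusted p = 2.84e-06) and was lower with the compound in stimulated cells with a log2 change of -1.14 (SE 0.20, adjusted p = 0.00190). Hsd17b12, of the elongation cycle, was lower with a log2 change of -1.06 (SE 0.17, adjusted p = 0.000956), and Acss2, the acetyl-CoA synthetase of the cytosol, higher by 1.17 on the log2 scale (SE 0.22, adjusted p = 0.00276). Of 10 genes of fatty acid oxidation, 3 were higher and 1 was lower with the compound in stimulated cells, with Acadl at 1.04 (SE 0.21, adjusted p = 0.00382) and Cpt1a, the gate of the mitochondrion, at 1.01 (SE 0.22, adjusted p = 0.00631). In unstimulated cells the compound gave 1 call in each of 5 of these 7 lists and none in the LXR receptor and further LXR target lists. A single call was 6.25% to 11.1% of the genes tested in a list, beside 7.34% of all genes.

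Levels between genes were compared per length, in TPM averaged over the 9 libraries. Insig1 was the most abundant of the 33 at 58.4 TPM, followed by Acly at 46.3, Fdps at 39.4, Abcg1 at 32.5 and Acat2 at 28.2. These 5 overlapped in their range over the 9 libraries, a range that includes the differences between groups. In stimulated vehicle, Insig1 lay at 71.3 and 76.6 TPM, Acly at 72.5 and 64.4, Abcg1 at 10.8 and 7.37 and Acat2 at 20.1 and 14.7. In unstimulated vehicle Insig1 (42.0 and 30.1 TPM), Abcg1 (51.1 and 24.7) and Acat2 (57.0 and 28.9) overlapped. Their order by the mean is thus not read as the order in each group. The least abundant were Scd1 at 0.182 TPM, Abca1 at 0.548, Elovl6 at 0.894 and Scd2 at 1.40, where neighbours in the order overlapped in range. Abcg1 exceeded Abca1 in TPM in all 9 libraries, with a lowest value of 7.37 against a highest of 1.04.

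Markers of other cells were set beside the calls of the compound. In stimulated cells 5 of the 6 T cell markers were called higher, where 11.7% of all genes were called higher. Cd4 was higher there by 0.79 on the log2 scale (SE 0.20, adjusted p = 0.0119). In unstimulated cells 3 of the 6 were called higher, where 4.44% of all genes were called higher. There the natural killer cell markers summed to 1.55 to 2.45 CPM with vehicle and 6.17 to 8.25 with Compound 10. Of these markers 1 of the 2 tested was called higher. In stimulated cells the natural killer cell markers summed to 2.45 to 3.18 CPM in stimulated vehicle and 9.38 to 11.4 in stimulated Compound 10, with both tested markers of the 3 called higher. B cell markers summed to 18.8 to 44.4 and 25.5 to 49.0 CPM in those groups. They summed to 36.6 to 57.8 and 25.3 to 27.4 in the unstimulated groups. None of the 4 was called for the compound in stimulated or unstimulated cells, where 23.0% and 7.34% of all genes were called. Neutrophil markers summed to at most 3.32 CPM and erythroid markers to at most 9.61 CPM in any library, and no marker list was at 0 throughout. The part of the natural killer and T cell marker differences in the calls above was not tested.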

How the data were processed

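RNA from mouse splenic CD4+ T cells was extracted with Qiagen reagents and made into libraries with Clontech SMART-seq, per the labels' protocols. The submitters' processing notes name cutadapt, kallisto and mm10, with versions not given in the sources used here. Values stand per transcript. The deposited estimated counts have no scaling between libraries, per the file headers, and the deposited TPM values were scaled by the authors to effective length and a fixed sum per library. Effective lengths, also deposited by the authors per the file headers, served only as an offset in an alternative. Whether counting used the strand is likewise not stated.

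Transcripts were matched to GENCODE M21 genes (GRCm38) without version, 108214 of 109617, leaving 0.542% to 0.829% of counts unmatched. Estimated counts were summed per gene and rounded to whole numbers. Genes were filtered with filterByExpr (minimum count 10), and 14040 genes in 9 libraries were fitted together with edgeR 4.0.16 (R 4.3.3) by the quasi-likelihood test, TMM scaling and Benjamini-Hochberg adjustment over all genes tested, two-sided, with a threshold of 0.05. The SE is the size of the log2 change divided by the root of the test's F. The fit was tested on simulated data. Groups came from the labels, and the comparisons were stimulation within each arm, Compound 10 within each state, and the difference between those effects. Libraries held 10669821 to 21852830 estimated counts, and the median SE of a log2 change over all genes was 0.299 to 0.441 by comparison.

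Alternatives were DESeq2 1.42.0, limma 3.58.1 on log2(TPM + 1), scaling by upper quartiles or by median of ratios, a filter at 50 counts or none, effective lengths as an offset, only the groups compared, leaving out ribosomal RNA and mitochondrial genes, a replicate block, and leaving out each library. The genes, lists and tests were chosen with earlier results of these data known. Genes named in the text are the listed ones, and at most 4 called genes of each further list with the smallest p. Promoter sequences came from RefSeq (GRCm38.p6). No sequence was used here for Stard4, Abcg1, Scd1, Sqle, Scd2, Fdft1 and Fdps. Some genes of these pathways are not reported here.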

Additional observations from a re-analysis of the deposited data

Results flagged for a closer look

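The effect of Compound 10 on Cyp51 differed between stimulated and unstimulated cells with a log2 change of -1.65 (SE 0.28, adjusted p = 0.0182) in edgeR's quasi-likelihood test of that difference. Cyp51 was lower with the compound in all 3 stimulated libraries than in both stimulated vehicle libraries, and not lower in unstimulated cells, where the compound libraries were at 42.0 and 30.6 CPM against 28.5 and 28.5. The call ended without any 1 of 6 libraries, as given above, on log2(TPM + 1) in limma (0.105) and with a block on the replicate number, and its direction did not change.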

How the results depend on the processing

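Of 43 called values of single genes, 11 kept an adjusted p under 0.05 in every alternative run. Over the alternatives for genes called in any setting, 988 of 1195 values kept direction and side of the threshold, 163 lost the call, 42 gained one and 2 reversed. Of the 105 values called in no setting, 41 changed sign in some setting. The reversals were Dhcr7 with stimulation in vehicle without stimulated vehicle library 2 (log2 change 0.11) and Scd1 in the same comparison without unstimulated vehicle library 1 (0.053). Leaving out 1 library at a time moved them from -0.91 to 0.11 and from -6.58 to 0.053.

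Counts of called genes are given in the order Compound 10 in stimulated cells, Compound 10 in unstimulated cells, stimulation in vehicle, stimulation under Compound 10, difference between effects, beside 10, 3, 18, 11 and 1 as reported. Limma on log2(TPM + 1) called 2, 1, 10, 5 and 0. Over all genes it called 1187, 231, 2648, 2334 and 22, against 3234, 1030, 3943, 3054 and 144 as reported. Calls over all genes were fewer in each comparison without both vehicle libraries numbered 2 as well. Leaving out both vehicle libraries numbered 2, an alternative chosen after seeing the data, gave 6, 0, 7, 9 and 0. Leaving out 1 library gave 6 to 12, 0 to 3, 10 to 19, 5 to 11 and 0 to 3. With only the groups compared, Compound 10 in unstimulated cells gave 6, and 1532 over all genes. The difference between effects gave 2 with upper-quartile scaling, 3 with DESeq2, 3 with no filter, 3 with the stricter filter and 2 without ribosomal RNA and mitochondrial genes. In that order 147, 452, 512, 183 and 151 were called over all genes. The cause was not tested. On log2(TPM + 1) the synthesis less efflux change was -0.000542 for Compound 10 in unstimulated cells and 0.987 for stimulation in vehicle.

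Over all genes, limma on log2(TPM + 1) gave 977 higher and 1671 lower calls with stimulation in vehicle, against 2012 and 1931, and 595 and 1739 under Compound 10, against 1541 and 1513, with median shifts of -0.17 and -0.21. Upper-quartile scaling moved the median of the difference between effects to 0.11. The replicate block gave counts of 10, 2, 16, 8 and 0 among the 33, and 2681, 878, 3869, 2385 and 43 over all genes. It ended the calls of the Cyp51 difference (adjusted p = 0.0534), of Fasn with the compound in stimulated cells (0.0759), of Scd2 with it in unstimulated cells (0.0596), of Sc5d (0.0535) and Abca1 (0.0510) with stimulation in vehicle, and of Idi1 (0.148), Cyp51 (0.0826) and Hsd17b7 (0.0593) under Compound 10, and it added Dhcr7 with the compound in stimulated cells (0.0329). Deviations of libraries with the same number correlated between -0.10 and 0.33. The value was 0.33 between the vehicle groups, 0.23 and 0.18 between the Compound 10 groups and -0.10 between the unstimulated groups. The labels give no batch, and the numbers were not taken as pairing in the reported fit. With 2 or 3 libraries a group, a median SE of 0.299 to 0.441 limits what can be called.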
